A study of Mus musculus with 13 samples.

Results

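The genes described here are 10 genes whose RNA marks astrocytes, the star-shaped glial cells of the brain, and whose levels are read as signs of gliosis. They were taken by symbol from a table of 55421 gene identifiers: Gfap, Aqp4, Slc1a2, Slc1a3, Aldh1l1, S100b, Gja1, Gjb6, Agt and Aldoc, each with 1 identifier. The samples were the arcuate nucleus of the hypothalamus of 13 mice aged 20 weeks, with 1 bulk RNA library per mouse. KO mice carried a floxed Klf4 gene and Cre recombinase under Agrp, a gene of hunger-promoting neurons, so that the deletion is aimed at Agrp-expressing cells and not at astrocytes. Control mice were littermates, and the labels leave unsaid whether they carried Cre. There were 3 KO mice on a high-fat diet (HFD), given for the last 10 weeks, beside 4 controls fed it, and 3 KO mice kept on chow throughout, beside 3 controls kept on it.

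Astrocytes take up glutamate and potassium released by neurons, wrap blood vessels with endfeet, and form a network through gap junctions. In injury and inflammation they enlarge and make more of the filament protein GFAP, a response called reactive gliosis. In the arcuate nucleus, which senses hormones and nutrients of the blood, gliosis is known as a response to fat-rich feeding in rodents.

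Libraries held between 34.7 and 68.2 M counts, and levels are given as counts per M counts of the library (CPM). The lowest count of any of the 10 genes in any library was 2725, for S100b, so counting error is small beside the spread between mice. A pair of libraries stood apart. Hsd11b2, a neighbour of Agrp on chromosome 8, lay between 60.7 and 68.5 CPM in the KO libraries and between 0.348 and 1.55 CPM in the other controls, and Control_HFD replicate 3 held 63.6 CPM. Klf4 itself did not separate the labelled genotypes, with 4.58 ± 1.91 CPM in KO and 3.58 ± 1.69 CPM in controls on HFD, and 2.67 ± 0.496 CPM in KO and 2.72 ± 0.429 CPM in controls on chow (SD), so it checks no label. The library labelled F, Control_Chow replicate 3, held 180 CPM of Y-linked reads and 0.674 CPM of Xist, the RNA made from the inactive X of females. By such reads each KO group held 2 F and 1 M mice, the HFD controls 2 F and 2 M, and the chow controls M mice only. Sex and genotype were therefore unevenly divided on chow. The model fits took sex from the letters unless said otherwise, so Control_Chow replicate 3 entered them as F.

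Promoter sequences are shown for 5 of the genes, because 4 of them (Gfap, Gja1, S100b and Agt) varied together between mice and 1 (Slc1a3) was the steadiest of the 10. Each is the 250 bases before the RefSeq transcript start on GRCm38.p6, read 5′ to 3′ on the strand of the gene: chr11:102897201-102897450 (minus strand) for Gfap, chr10:56377050-56377299 (plus strand) for Gja1, chr10:76253586-76253835 (plus strand) for S100b, chr8:124569707-124569956 (minus strand) for Agt and chr15:8710808-8711057 (minus strand) for Slc1a3. Capitals mark matches on either strand to TTCNNNGAA (the STAT core), TGANTCA (AP1), TATAAA (the TATA box) and CACCC (a core bound by KLF factors).
Gfap: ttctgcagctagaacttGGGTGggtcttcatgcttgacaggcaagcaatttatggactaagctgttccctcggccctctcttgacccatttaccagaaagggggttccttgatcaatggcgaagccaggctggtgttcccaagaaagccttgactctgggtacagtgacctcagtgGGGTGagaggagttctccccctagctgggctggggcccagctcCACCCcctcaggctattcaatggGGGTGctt
Gja1: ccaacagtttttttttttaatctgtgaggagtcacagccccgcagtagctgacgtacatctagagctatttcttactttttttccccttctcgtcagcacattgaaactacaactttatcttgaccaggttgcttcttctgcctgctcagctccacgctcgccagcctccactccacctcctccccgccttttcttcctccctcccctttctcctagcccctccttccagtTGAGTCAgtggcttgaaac
S100b: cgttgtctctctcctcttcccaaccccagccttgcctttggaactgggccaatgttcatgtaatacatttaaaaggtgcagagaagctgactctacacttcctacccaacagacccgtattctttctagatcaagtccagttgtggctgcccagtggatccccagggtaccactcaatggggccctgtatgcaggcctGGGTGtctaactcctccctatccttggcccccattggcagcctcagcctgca
Agt: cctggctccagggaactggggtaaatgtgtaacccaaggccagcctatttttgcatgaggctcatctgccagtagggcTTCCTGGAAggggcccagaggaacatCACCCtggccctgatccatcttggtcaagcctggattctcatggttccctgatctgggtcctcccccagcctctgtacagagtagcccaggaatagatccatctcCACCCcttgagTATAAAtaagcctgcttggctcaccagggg
Slc1a3: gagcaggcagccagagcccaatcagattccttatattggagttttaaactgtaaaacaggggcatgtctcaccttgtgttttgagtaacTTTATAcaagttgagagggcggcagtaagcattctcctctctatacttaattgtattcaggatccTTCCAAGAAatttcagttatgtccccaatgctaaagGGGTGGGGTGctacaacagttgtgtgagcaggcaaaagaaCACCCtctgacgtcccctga
These windows held 4 CACCC matches for Gfap, 0 for Gja1, 1 for S100b, 2 for Agt and 3 for Slc1a3. The letters of the STAT core stood once in the Agt window and once in that of Slc1a3, as did those of the TATA box, and the only AP1 match was in Gja1. Of 32851 promoters of this length, 52.0% held CACCC, 7.02% the STAT core, 6.75% AP1 and 12.4% the TATA box. The letters describe these windows only, and none of the windows was measured for binding.

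The 10 genes covered a wide range of levels. On the deposited RPKM scale, which divides by gene length, the mean over 13 libraries was highest for Aldoc, the brain form of the glycolytic enzyme aldolase (392), followed by Agt, the precursor of angiotensin (298), Gfap (131) and Slc1a3, a glutamate transporter (122). The means of S100b, a calcium-binding protein, Gjb6 and Gja1, which are connexins of astrocyte gap junctions, and Aqp4, the water channel of the endfeet, were 66.9, 49.1, 34.5 and 30.2 RPKM. Aldh1l1, an enzyme of folate metabolism, and Slc1a2, the second glutamate transporter, had the lowest means, 19.6 and 15.1 RPKM. Over the 13 libraries Gfap ranged from 20.4 to 213 RPKM, which took in all values of Slc1a3, S100b, Gjb6 and Gja1, so that its place in this order differed between mice. Neighbours whose ranges overlapped were Aldoc with Agt, S100b with Gjb6, Gjb6 with Gja1, Gja1 with Aqp4, Aqp4 with Aldh1l1 and Aldh1l1 with Slc1a2. The order rests on the gene lengths, of which that of Slc1a2 was the longest, 13133 bases. Without division by length, Slc1a2 averaged 199 CPM, above Aqp4 (189 CPM), Gjb6 (131 CPM), S100b (99.3 CPM) and Aldh1l1 (88.7 CPM). Together the 10 genes made up 0.35% to 0.528% of all counts.

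Gfap varied most among the 10 genes, and Slc1a3, Aldoc and Slc1a2 least. Its highest library was 10.4-fold above its lowest, against 2.47-fold for Aqp4, 1.88-fold for S100b and 1.78-fold for Gjb6. The ratio was 1.64 for Agt, 1.5 for Gja1, 1.45 for Aldh1l1, 1.32 for Slc1a2, 1.29 for Aldoc and 1.22 for Slc1a3. The SD of Gfap within groups was 0.96 on the log2(CPM + 1) scale, at percentile 99.8 among the 2300 tested genes whose mean on this scale was at or above that of about 100 CPM. Aqp4 followed with 0.42 (percentile 98), whereas Slc1a3 had 0.09 (percentile 37). Gfap made up between 2.28% and 17.6% of the summed counts of the 10 genes, and the sum of the other 9 genes differed by only 1.31-fold between the extreme libraries.

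**Figure D1:**
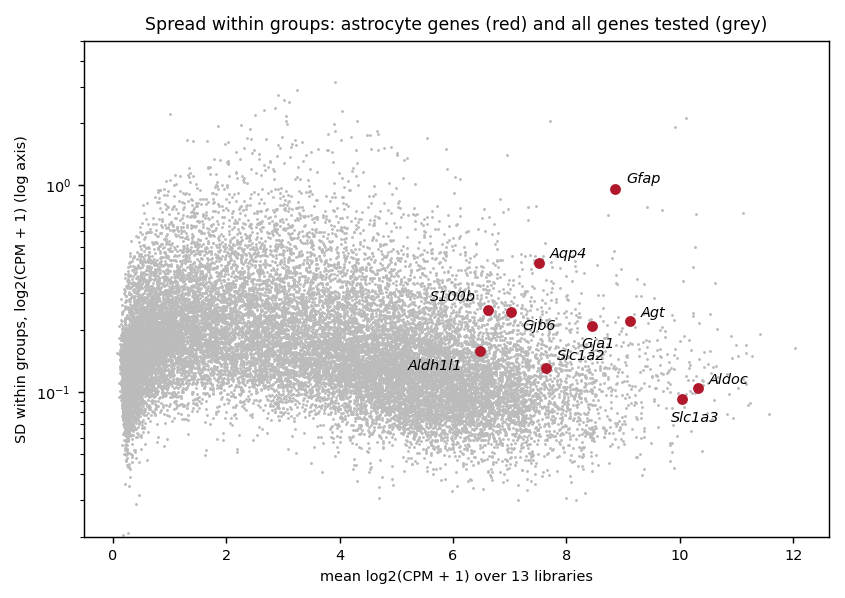
SD within groups of log2(CPM + 1) on a log axis against the mean log2(CPM + 1) over 13 libraries, with 1 grey point for each of the 23622 genes tested and red points for the 10 astrocyte genes. Gfap, with an SD of 0.96, stands high above genes of like abundance, and Slc1a3 and Aldoc lie among them.

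Gfap, the intermediate filament protein read as a sign of gliosis, had 403, 899 and 850 CPM in KO on HFD and 485, 766, 421 and 716 CPM in controls on HFD. Its chow levels were 155, 735 and 896 CPM in KO mice and 446, 327 and 86.1 CPM in control mice. All 4 groups overlapped, and a single library in each chow group lay far below the rest, KO_Chow replicate 1 and Control_Chow replicate 3. The log2 fold change of HFD against chow was 0.95 ± 0.69 (SE) in controls, 0.31 ± 0.69 in KO and 0.63 ± 0.48 over both genotypes, with edgeR adjusted p of 0.734, 0.985 and 0.781. That of KO against control was 0.17 ± 0.67 on HFD and 0.81 ± 0.84 on chow, with edgeR adjusted p of 1 and 0.721. The chow value was 1.74 without KO_Chow replicate 1 and -0.15 without Control_Chow replicate 3. The diet value in controls was 0.27 without Control_Chow replicate 3 and 1.44 without Control_Chow replicate 1, that in KO was -0.22 without KO_Chow replicate 1, and with sex taken from the reads the genotype value on chow was 0.28 ± 0.77. Without both libraries that stood apart, KO against control was -0.43 on HFD and -0.44 on chow.

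Aqp4, the endfoot water channel, had 144, 234 and 276 CPM in KO on HFD and 171, 171, 189 and 198 CPM in controls on HFD. Its chow levels were 116, 242 and 277 CPM in KO mice and 164, 156 and 112 CPM in control mice. Every HFD control lay above every chow control, and the KO groups overlapped widely with both. The log2 fold change of HFD against chow in controls was nevertheless 0.23 ± 0.25, with an edgeR adjusted p of 0.819, and it was -0.11 without Control_Chow replicate 3, 0.39 without Control_Chow replicate 1 and 0.031 with sex taken from the reads. KO against control gave 0.15 ± 0.24 on HFD and 0.32 ± 0.28 on chow (edgeR adjusted p 1 and 0.653), and the chow value was 0.05 ± 0.22 with sex taken from the reads. Without both libraries that stood apart these values were -0.04 and -0.17.

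S100b, a calcium-binding protein of astrocytes that oligodendrocytes also make, had 103, 132 and 113 CPM in KO on HFD and 114, 87.3, 90.7 and 97.2 CPM in controls on HFD. Its chow levels were 74.3, 124 and 130 CPM in KO mice and 78.5, 70.5 and 76.1 CPM in control mice. Both HFD groups lay wholly above the chow controls, while KO_Chow replicate 1 lay among them. In KO against control on chow the log2 fold change was 0.44 ± 0.18, with an unadjusted p of 0.0308 and an edgeR adjusted p of 0.341. It was the only 1 of the 10 genes at an unadjusted p under 0.05 in any of the 6 comparisons of diet and genotype, and in this comparison 12.9% of all 23622 genes tested were at such a p. With sex taken from the reads the value was 0.35 ± 0.20 (unadjusted p 0.102), and without KO_Chow replicate 1 it was 0.70. HFD against chow in controls gave 0.34 ± 0.16 (edgeR adjusted p 0.63), and 0.17 ± 0.14 without Control_HFD replicate 1.

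**Figure D2:**
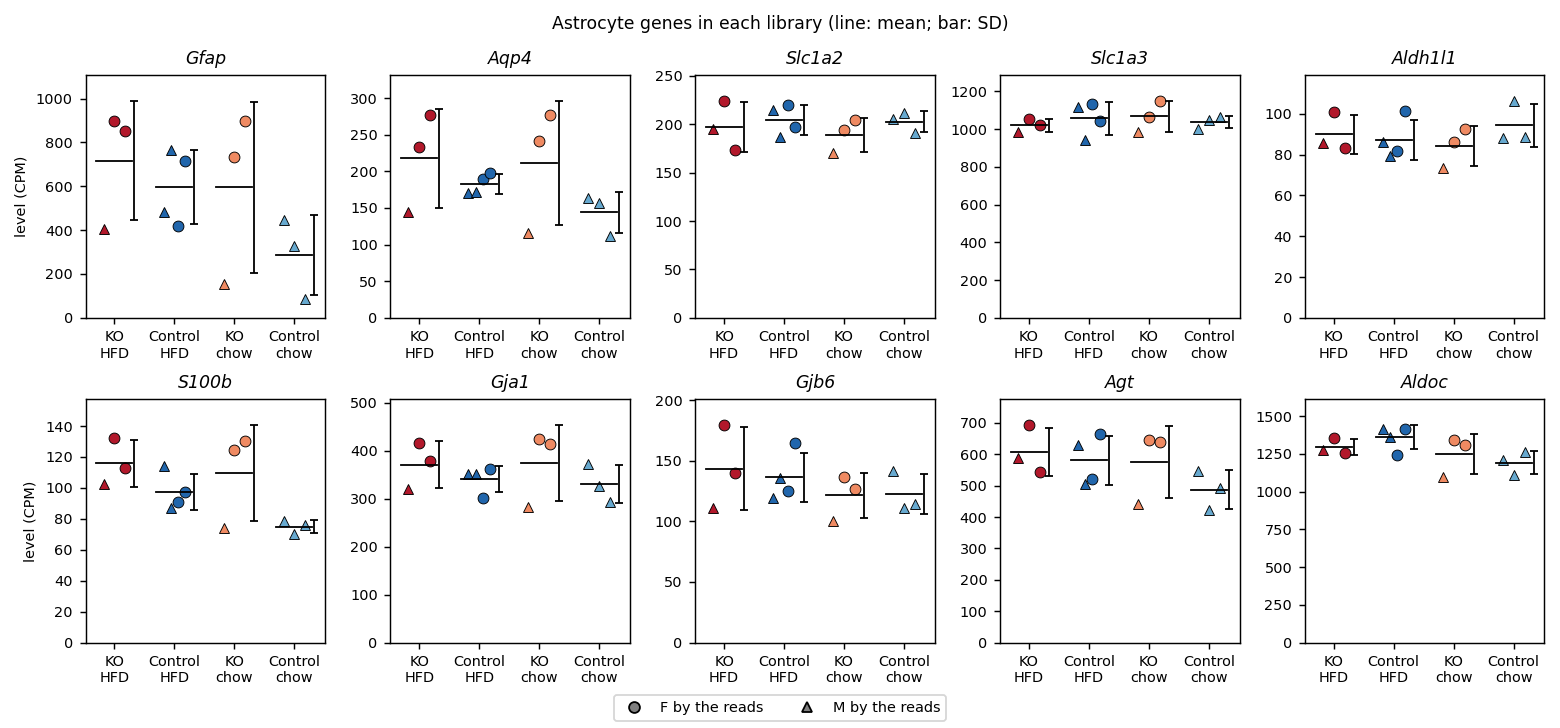
Level in CPM of the 10 astrocyte genes in each library, in the order KO on HFD, controls on HFD, KO on chow and controls on chow, with circles for libraries F by the reads and triangles for those M by the reads. Lines are group means and bars SDs. The single M library of KO on chow is the lowest of its group in all 10 panels, and the chow controls are all triangles.

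The glutamate transporters clear glutamate from the synapse, and both were among the 3 steadiest of the 10 genes. Slc1a3 had 986, 1051 and 1020 CPM in KO on HFD and 1116, 942, 1130 and 1041 CPM in controls on HFD. It had 985, 1066 and 1151 CPM in KO on chow and 1001, 1046 and 1063 CPM in controls on chow. Its groups overlapped throughout, and its log2 fold changes lay between -0.07 and 0.00 in the 5 comparisons of groups, with SEs of at most 0.09. Slc1a2 had group means of 197 ± 25.8 CPM in KO on HFD and 204 ± 15.6 CPM in controls on HFD, and of 189 ± 17.5 CPM in KO on chow and 203 ± 10.9 CPM in controls on chow (SD). Its largest log2 fold change was -0.13 ± 0.12, for KO against control on chow. Exons of Slc1a2 overlap an antisense gene, Gm13872, at up to 12.6 CPM, and because the strand setting of the counting is not given, their reads cannot be told apart.

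The connexins overlapped between all groups. Gja1 averaged 372 ± 48.7 CPM in KO on HFD and 342 ± 27.0 CPM in controls on HFD, and 374 ± 79.1 CPM in KO on chow and 331 ± 40.4 CPM in controls on chow (SD). Its log2 fold changes were at most 0.11 ± 0.15 in the 5 comparisons of groups. Gjb6 averaged 143 ± 34.2 CPM in KO on HFD and 136 ± 20.2 CPM in controls on HFD, and 121 ± 18.8 CPM in KO on chow and 122 ± 16.6 CPM in controls on chow. Its largest fold change by size was 0.24 ± 0.16 on the log2 scale, for HFD against chow in KO (edgeR adjusted p 0.984), and this was 0.065 without KO_HFD replicate 2.

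The metabolic and secreted products differed little between groups. Agt, made in the brain mainly by astrocytes, averaged 608 ± 76.4 CPM in KO on HFD and 580 ± 78.9 CPM in controls on HFD, and 574 ± 115 CPM in KO on chow and 487 ± 62.1 CPM in controls on chow (SD). HFD against chow in controls gave a log2 fold change of 0.22 ± 0.15 for Agt and of 0.17 ± 0.09 for Aldoc (edgeR adjusted p 0.721 and 0.65). The Agt value was 0.11 without Control_HFD replicate 1, 0.14 without Control_Chow replicate 2 and 0.34 without Control_Chow replicate 1. Aldoc had 1275, 1355 and 1254 CPM in KO on HFD and 1415, 1364, 1244 and 1413 CPM in controls on HFD, while KO on chow had 1096, 1345 and 1307 CPM and controls on chow 1207, 1109 and 1261 CPM. In Aldoc 3 of the 4 HFD controls lay above every chow control, and the fourth, Control_HFD replicate 3, lay just below the highest of them. Aldh1l1 had 87.1 ± 9.96 CPM in controls on HFD and 94.3 ± 10.5 CPM in controls on chow. Its KO groups had 89.9 ± 9.45 CPM on HFD and 84.2 ± 9.80 CPM on chow. The log2 fold change of HFD against chow in controls was -0.15 ± 0.12 (edgeR adjusted p 0.751), and -0.041 without Control_Chow replicate 2. That of KO against control on chow was -0.22 ± 0.13 (edgeR adjusted p 0.483), and -0.12 without Control_Chow replicate 2. Exons of Aldh1l1 overlap those of the antisense gene Gm15756, at up to 14.1 CPM.

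For each comparison of diet and genotype, edgeR's quasi-likelihood test placed 0 of the 10 genes past an adjusted p of 0.05, as it did for all genes tested (0%). For KO against control on HFD, 0 of 10 were at an unadjusted p under 0.05 (1.66% of all genes), 7 had a positive log2 fold change (49% of all genes) and the median was 0.03, beside 0.00 for all genes. For KO against control on chow, S100b was the 1 of 10 named above, 6 were positive (49.6% of all genes) and the median was 0.07. For HFD against chow, 0 of 10 were at an unadjusted p under 0.05 in controls, in KO or over both genotypes (8.06%, 4.05% and 6.95% of all genes), 8 were positive in each case (51%, 49.7% and 49.4% of all genes), and the medians were 0.13, 0.09 and 0.13. The diet comparisons share samples with one another and with the genotype comparisons. All HFD mice had higher animal numbers in their titles than all chow mice, so diet and number series cannot be told apart. In controls the CPM of 2 of the 10 genes, Aqp4 and S100b, did not overlap between HFD and chow, both higher on HFD, which held for 4.88% of all genes, with another 4.87% lower. For HFD against chow in KO, 0 of 10 were free of overlap (3.6% of all genes higher, 4.97% lower). For KO against control 0 of 10 were so on HFD (1.6% higher, 1.61% lower) and 0 of 10 on chow (10.7% higher, 8.81% lower).

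DESeq2, run on the same counts and design, also called 0 of the 10 genes in these comparisons, although it called 344 genes for KO against control on chow, 46 for HFD against chow in controls, 8 for HFD against chow in KO, 14 over both genotypes, 6 for the interaction and 0 for KO against control on HFD. The genotype by diet interaction, the diet difference in KO minus that in controls, was -0.64 ± 0.98 for Gfap, -0.24 ± 0.24 for S100b and 0.25 ± 0.17 for Aldh1l1 on the log2 scale. None of the 10 reached an unadjusted p under 0.05 there, against 5.1% of all genes, and 3 had a positive value (49.1% of all genes). In bulk tissue, fewer astrocytes and less RNA per astrocyte cannot be told apart, in either direction.

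**Figure D3:**
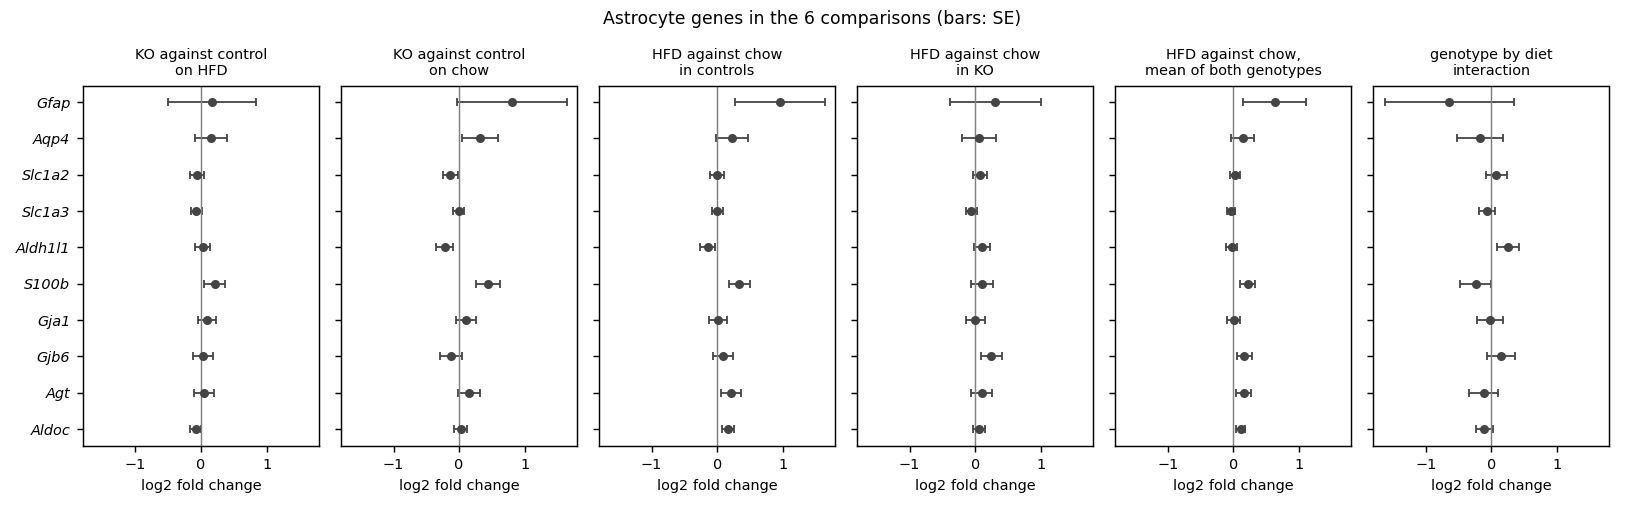
Log2 fold change of the 10 astrocyte genes in the 6 comparisons, from edgeR, with SE bars. The bars of Gfap are the widest, up to 0.98 for the interaction, and those of Slc1a3 and Aldoc among the narrowest.

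Because sex by the reads differed from the letters in 1 library, the 10 genes were also compared between the 6 libraries F by the reads and the 7 libraries M by the reads, a comparison added after these data were seen. Aqp4 lay between 189 and 277 CPM in the F libraries, with a median of 238, and between 112 and 171 CPM in the M libraries, with a median of 156. No F library overlapped an M library, which was true of 0.212% of all genes in that direction. The log2 fold change of F against M, with group in the model, was 0.62 ± 0.16, with an unadjusted p of 0.00242. The edgeR adjusted p was 0.67 and the DESeq2 adjusted p 0.0229, so the call rests on the tool.

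It follows that Aqp4 was higher in every F than in every M library within each of the 3 groups that held both. The values by group are therefore a description and no further support. In KO on HFD it had 234 and 276 CPM in F and 144 CPM in M. In controls on HFD it had 189 and 198 CPM in F and 171 and 171 CPM in M. In KO on chow it had 242 and 277 CPM in F and 116 CPM in M. The chow controls held no F library by the reads. Among M libraries only, Aqp4 had 144 and 116 CPM in the KO mice on HFD and chow, 171 and 171 CPM in HFD controls and 164, 156 and 112 CPM in chow controls.

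Gjb6 was the other gene at an unadjusted p under 0.05 (6.47% of all genes), with a log2 fold change of 0.33 ± 0.11 and an edgeR adjusted p of 0.767. It averaged 145 ± 21.8 CPM in the 6 F libraries and 119 ± 14.5 CPM in the 7 M libraries (SD), and the ranges overlapped. Gfap lay between 421 and 899 CPM in F and between 86.1 and 766 CPM in M, with a log2 fold change of 0.86 ± 0.56 (edgeR adjusted p 0.812), which was 0.34 without KO_Chow replicate 1. All 10 genes had a positive log2 fold change (48.9% of all genes), with a median of 0.20, and 0 of 10 passed the edgeR adjustment (0.055% of all genes). When the letters set the sex, the values were 0.39 ± 0.19 for Aqp4 and 0.24 ± 0.12 for Gjb6, and all 10 genes had an edgeR adjusted p of 1. In KO on chow every F library lay above the M library in 10 of the 10 genes (42.2% of all genes), in KO on HFD in 6 of 10 (34.4%), and in controls on HFD in 1 of 10, Aqp4 (12.2%). With 1 M library in each KO group, sex and that single mouse cannot be told apart there.

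Between mice, most of the 10 genes varied together. Over the 13 libraries all 45 pairs had a positive Pearson r on the log2(CPM + 1) scale, from 0.02 to 0.89, with a median of 0.46. By a two-sided permutation test with 100000 resamples, 14 of 45 pairs passed after Benjamini-Hochberg adjustment. The highest was Gfap with Aqp4 (r = 0.89, rho = 0.90, adjusted permutation p 0.00045), followed by S100b with Agt (r = 0.87, rho = 0.86) and Aqp4 with Gja1 (r = 0.85, rho = 0.82), both at an adjusted permutation p of 0.00292. The pair of filament and connexin, Gfap with Gja1, had r = 0.83 and rho = 0.85, and Agt with Aldoc r = 0.82 and rho = 0.69. Neither glutamate transporter nor Aldh1l1 was in any of the 14 pairs. Gfap with Slc1a3 had an r of only 0.10. No share of passing pairs was computed for other genes, so whether this is particular to astrocyte genes was not tested.

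These relations rested in part on extreme mice. Without the 2 libraries farthest from the median of the first gene, 9 of 45 pairs passed, and Gfap with Aqp4 had r = 0.82 (adjusted permutation p 0.0453). On deviations from the group means, permuted within groups, 0 of 45 pairs passed after adjustment, although r for Gfap with Aqp4 was then 0.88 and the range over the pairs was 0.10 to 0.91. The r of Gfap with Aqp4 was 0.74 over the 7 HFD libraries and 0.96 over the 6 chow libraries, 0.78 over the 6 F libraries and 0.94 over the 7 M libraries.

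**Figure D4:**
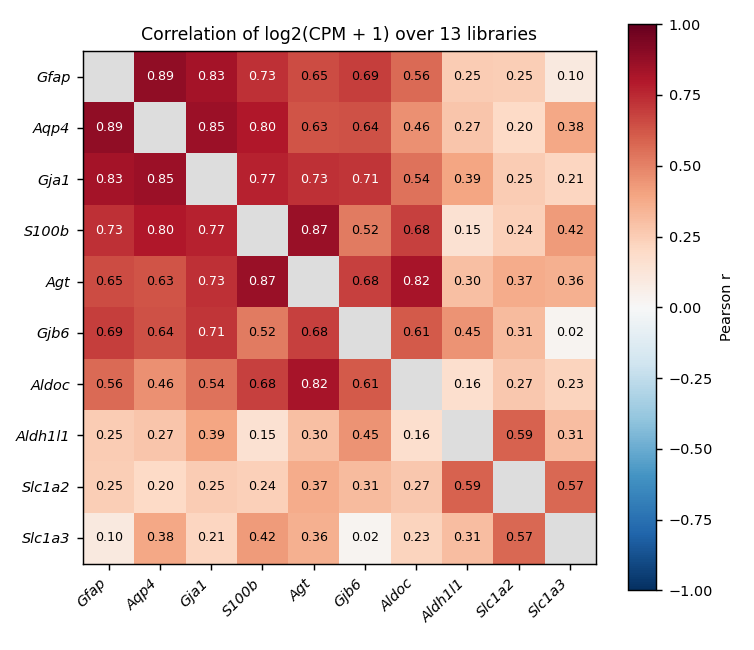
Pearson r of log2(CPM + 1) between the 10 astrocyte genes over 13 libraries. Gfap, Aqp4, Gja1, S100b and Agt form the block of high values, with Gfap and Aqp4 at 0.89, and Slc1a2, Slc1a3 and Aldh1l1 have lower values with most of the others.

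The levels also moved with markers of other cell types in the tissue pieces. Of 90 relations between the 10 genes and 9 summed marker lists, 10 passed by the same permutation test. The share that other genes would give was not computed. Gjb6 followed the sum of 6 meningeal markers (r = 0.86, rho = 0.86, adjusted permutation p 0.009), and S100b the sum of 10 oligodendrocyte markers (r = 0.86, rho = 0.90, adjusted permutation p 0.0117). Gja1 and Agt also followed the oligodendrocyte sum (r = 0.80 and 0.75), and S100b, Gja1 and Agt the sum of 6 oligodendrocyte precursor markers (r = 0.77, 0.75 and 0.82). Aqp4 was lower where the sum of 8 neuron markers was higher (r = -0.80, rho = -0.86). Gfap followed the microglia sum (r = 0.78, rho = 0.80) and the meningeal sum (r = 0.70, rho = 0.68). Without the 2 farthest libraries, and on group deviations, 0 of 90 passed, with r of 0.80 for Gjb6 with the meningeal sum and 0.80 for S100b with the oligodendrocyte sum in the first case.

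The marker sums varied within groups, and some also differed between groups. The oligodendrocyte sum lay between 5544 and 8418 CPM in KO on HFD and 2790 and 7043 CPM in controls on HFD, and between 2042 and 8916 CPM in KO on chow and 2720 and 4607 CPM in controls on chow. KO_Chow replicate 1, lowest of its group in all 10 astrocyte genes, held the lowest oligodendrocyte sum of all 13 libraries. All 10 oligodendrocyte markers had a positive fold change in KO against control on chow (49.6% of all genes), with 0 at an unadjusted p under 0.05 (12.9% of all genes) and a median of 0.55 on the log2 scale. The microglia sum lay between 545 and 732 CPM in KO on HFD and 492 and 722 CPM in controls on HFD, and between 425 and 583 CPM in KO on chow and 358 and 465 CPM in controls on chow. Of its 9 markers 7 were higher at an unadjusted p under 0.05 for HFD against chow in controls and over both genotypes (4.16% and 3.94% of all genes were so), and 4 for KO against control on chow (6.84%). The meningeal sum ranged from 31.2 to 368 CPM, and none of the oligodendrocyte, microglia, neuron or meningeal markers was at 0 in any library. Pituitary markers, 5 of 8 tested higher at an unadjusted p under 0.05 for HFD against chow over both genotypes (3.94% of all genes), summed to 5.97 to 330 CPM in KO on HFD and 3.36 to 206 CPM in controls on HFD, against 6.97 to 42.0 CPM in KO on chow and 7.55 to 10.4 CPM in controls on chow, and Gh, Prl, Fshb and Pou1f1 were at 0 in some libraries. The tanycyte sum lay between 61.1 and 607 CPM in KO on HFD and 86.5 and 411 CPM in controls on HFD, which overlapped, and between 199 and 333 CPM in KO on chow and 68.2 and 173 CPM in controls on chow, which did not. The ependymal sum lay between 21.9 and 57.2 CPM in KO on HFD and 26.7 and 78.0 CPM in controls on HFD, and between 48.3 and 135 CPM in KO on chow and 21.6 and 57.3 CPM in controls on chow. Of 8 ependymal markers, 8 had a positive value in KO against control on chow (49.6% of all genes), with a median of 1.58. Of them 1 was higher at an unadjusted p under 0.05 (6.84% of all genes). For HFD against chow in KO, 8 had a negative value, where 49.7% of all genes had a positive one, with a median of -1.29. Of them 4 were at such a p, as were 4.05% of all genes in either direction. The ependymal marker Tmem212 was at 0 in 1 library. The share of these cells in the values of the 10 genes was not tested.

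**Figure D5:**
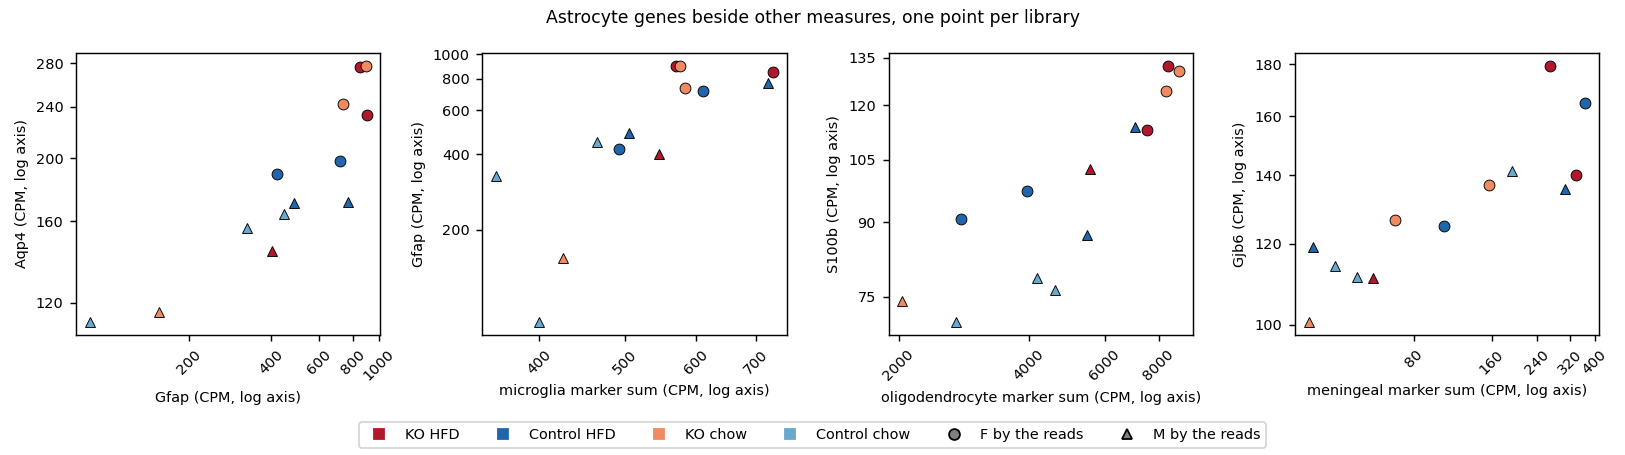
Aqp4 against Gfap, Gfap against the microglia marker sum, S100b against the oligodendrocyte marker sum and Gjb6 against the meningeal marker sum, in CPM on log axes, with 1 point per library. Pearson r is 0.89, 0.78, 0.86 and 0.86. The chow controls lie together at the low end of S100b, between 70.5 and 78.5 CPM, while KO on chow spans 74.3 to 130 CPM. The microglia sums of the chow controls lie between 358 and 465 CPM.

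Genes of reactive astrocytes were read beside the 10. Of 12 genes that rise in most kinds of reactive astrocyte, 11 had a positive log2 fold change for HFD against chow over both genotypes (49.4% of all genes), 0 were at an unadjusted p under 0.05 (6.95% of all genes), and the median was 0.57. The smallest p belonged to Cd44, a hyaluronan receptor (0.72 ± 0.34), Hspb1, a small heat shock protein (0.62 ± 0.30), Serpina3n, a protease inhibitor (0.53 ± 0.27), and Steap4, a metalloreductase (1.41 ± 0.72), all with edgeR adjusted p over 0.7. Without KO_HFD replicate 3 the values were 0.47 for Cd44 and 0.30 for Serpina3n, and without Control_HFD replicate 2 they were 0.41 for Hspb1 and 0.35 for Serpina3n. Cd44 had 17.8, 19.7 and 44.3 CPM in KO on HFD, 12.9 to 31.6 CPM in the 4 controls on HFD, 10.0, 24.8 and 27.0 CPM in KO on chow and 7.34, 12.7 and 6.74 CPM in controls on chow. The HFD and chow controls did not overlap in Cd44, while the KO groups did.

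Of 12 genes named after a neuroinflammatory astrocyte state, 5 were higher at an unadjusted p under 0.05 for HFD against chow over both genotypes, where 3.94% of all genes were, and 0 passed the edgeR adjustment. The median was 0.69. Psmb8, a subunit of the immunoproteasome (0.78 ± 0.28), H2-T23 (0.77 ± 0.28) and H2-D1 (0.66 ± 0.24), both histocompatibility genes that microglia and endothelium also express, had the smallest p among them, all with an edgeR adjusted p of 0.711. H2-D1 had 198, 227 and 392 CPM in KO on HFD, 131, 351, 161 and 246 CPM in controls on HFD, 179, 182 and 209 CPM in KO on chow and 146, 126 and 107 CPM in controls on chow. The high values were those of KO_HFD replicate 3 and Control_HFD replicate 2, and the groups overlapped on HFD. Without Control_HFD replicate 2 the Psmb8 value was 0.51. The same libraries, in that order, held the highest tanycyte sums (607 and 411 CPM) and the highest microglia sums (732 and 722 CPM). Their meningeal sums were also high (340 and 306 CPM). The part of these cells in the values was not tested. The list named after an ischaemic state, with 11 of 12 genes tested, had 0 genes higher and 1 lower at that p in the same comparison (3.94% and 3.01% of all genes).

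For KO against control on chow, 1 of the 12 pan-reactive genes was higher and 1 lower at an unadjusted p under 0.05 (6.84% and 6.07% of all genes). Serpina3n had a log2 fold change of 1.10 ± 0.40 (edgeR adjusted p 0.31), with 140, 105 and 127 CPM in KO mice and 87.5, 59.5 and 56.7 CPM in control mice, which did not overlap. Lcn2, lipocalin 2, had -3.08 ± 1.39 (edgeR adjusted p 0.383) at 0.0769, 0.107 and 0.152 CPM in KO mice and 0.288, 1.45 and 1.35 CPM in control mice. Its levels were far below those of the 10 genes, and 1 HFD control library held no Lcn2 count. The Lcn2 value was -1.99 without Control_Chow replicate 3 and -1.76 without both libraries that stood apart. Stat3, a signal transducer of gliosis, was at 0.49 ± 0.18 (edgeR adjusted p 0.314), and it was 1 of 10 astrocyte transcription factors at an unadjusted p under 0.05 there.

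Relatives of S100b were read beside it, and 0 of 7 passed the edgeR adjustment in any comparison of diet and genotype. Of these 7 other S100 genes, 5 were higher in KO against control on chow at an unadjusted p under 0.05 (6.84% of all genes were), with a median of 0.43, and 3 in HFD against chow in controls (4.16%), with a median of 0.45. S100a16, with a log2 fold change of 0.43 ± 0.12 in the first comparison, had 89.2, 115 and 119 CPM in KO on chow and 86.5, 74.2 and 71.1 CPM in controls on chow. S100a1 was at 0.41 ± 0.14, S100a13 at 0.42 ± 0.15 and S100a10 at 0.59 ± 0.21, all with edgeR adjusted p between 0.26 and 0.30. Without Control_Chow replicate 3 the values were 0.25 for S100a13 and 0.31 for S100a10. Without both libraries that stood apart they were 0.26 for S100a16, 0.22 for S100a1, 0.20 for S100a13 and 0.30 for S100a10. In KO against control on HFD, 0 of the 7 were at that p and the median was 0.10. The genotype comparison on chow and the diet comparison in controls share the chow control libraries. By the reads, the chow controls were all M, and KO on chow held 2 F and 1 M mice. S100a10 was higher in every F than in every M library by the reads, as were 0.212% of all genes. The part of sex in its chow value cannot be told apart from genotype here.

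Of 30 further genes typical of astrocytes, 4 were higher and 1 lower in KO against control on chow at an unadjusted p under 0.05 (6.84% and 6.07% of all genes). In that comparison 20 of the 30 had a negative value, where 49.6% of all genes had a positive one, and the median was -0.04. For HFD against chow in controls 2 were higher (4.16% of all genes) and 0 lower, and 0 were so in either direction in KO against control on HFD or in HFD against chow in KO (1.66% and 4.05%). Cst3, cystatin C, an abundant protease inhibitor of glia, had 2032, 2200 and 2132 CPM in KO on chow and 1437, 1799 and 1392 CPM in controls on chow, without overlap. Its log2 fold change was 0.44 ± 0.11, with an edgeR adjusted p of 0.263 and a DESeq2 adjusted p of 0.0211. Its HFD levels were 1987, 2000 and 2444 CPM in KO mice and 1825, 2203, 2132 and 1939 CPM in control mice, and HFD against chow in controls gave 0.38 ± 0.10 (edgeR adjusted p 0.563). Mlc1, a membrane protein of perivascular endfeet, was at 0.37 ± 0.11 in KO against control on chow (edgeR adjusted p 0.264), and at 0.24 without KO_Chow replicate 2. Cst3 is also strongly expressed by microglia.

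Pathways around the single genes were followed in the same way. In KO against control on chow, Agrn, a matrix protein that anchors endfeet, was at -0.40 ± 0.12 and Ace, the angiotensin-converting enzyme, at -0.46 ± 0.15 on the log2 scale, with edgeR adjusted p of 0.264 and 0.276. The Agrn value was -0.21 without KO_Chow replicate 1. Panx1, a pannexin channel, was at 0.26 ± 0.09 (edgeR adjusted p 0.294). In the lists of 20 glycolysis genes and 14 folate genes, to which Aldoc and Aldh1l1 relate, 0 genes were at an unadjusted p under 0.05 in the 6 comparisons of diet and genotype, where 1.66% to 12.9% of all genes were. Medians over these 2 lists lay between -0.04 and 0.03.

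A response gene of glucocorticoids on the neuroinflammatory list had values of opposite sign on the 2 diets. Fkbp5, a chaperone of steroid receptors, had 43.7, 37.6 and 49.6 CPM in KO on HFD and 35.7, 37.7, 29.8 and 33.2 CPM in controls on HFD, against 31.7, 36.5 and 24.1 CPM in KO on chow and 47.5, 45.5 and 37.0 CPM in controls on chow. KO lay below controls on chow without overlap, and on HFD 1 KO library lay just under the highest control. The interaction was 0.83 ± 0.19, with an unadjusted p of 0.000814 and an edgeR adjusted p of 0.909, and 5.1% of all genes were at an unadjusted p under 0.05.

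The genes most like each of the 10 were sought among 13131 protein-coding genes by Pearson r over the 13 libraries. Closest to Gfap were Tmem198b (r = 0.96) and C4b, a complement component (r = 0.95), which ranged from 31.7 to 210 CPM. Fmo5, Aspg, an asparaginase of the pan-reactive list, and Mmp19, a matrix metalloproteinase, followed with r of 0.94, 0.93 and 0.93. Closest to Aqp4 was Lcat, a cholesterol-esterifying enzyme of astrocytes (r = 0.96), then Cat, the peroxide-degrading catalase, and Acadl, an enzyme of fatty acid oxidation, with r of 0.94 and 0.92. Lcat, picked here for its r with Aqp4 over the same libraries, likewise did not overlap between F and M libraries by the reads. Its log2 fold change was 0.65 ± 0.15 (edgeR adjusted p 0.543, DESeq2 adjusted p 0.0131). Given how Lcat was picked, this is no separate support for a difference between F and M.

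Closest to S100b were Tprkb, Cmtm5 and Rida (r of 0.95, 0.95 and 0.94), to Agt Ubash3b, Pax6, a transcription factor, and Mfge8, a secreted glycoprotein of astrocytes (r of 0.94, 0.94 and 0.93), and to Gja1 Gpr137b, Mid1ip1 and Hhatl (r of 0.94, 0.93 and 0.92). Closest to Gjb6 were Abcb1a, the drug efflux pump of brain endothelium, Slco4a1, an organic anion transporter, and Jcad (r of 0.96, 0.95 and 0.94). The steadier genes had less close partners: Slc1a2 with Usp42 (r = 0.88) and Sparcl1, a matrix protein of astrocytes (r = 0.84), Slc1a3 with Nln (r = 0.83), Aldoc with Ppfibp2 (r = 0.88) and Aldh1l1 with Hdac5, a histone deacetylase (r = 0.91). These are the highest of 13131 values each and are given as descriptions.

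The genes lie on 8 chromosomes (GRCm38, GENCODE M21). Gfap spans 102887336 to 102900912 on the minus strand of chromosome 11 and Aldoc 78322968 to 78327781 on its plus strand. Gja1 (56377330 to 56402513) and S100b (76253853 to 76261159) lie on the plus strand of chromosome 10. Agt spans 124556534 to 124569706 on the minus strand of chromosome 8, Slc1a3 8634124 to 8710764 on the minus strand of chromosome 15 and Slc1a2 102658659 to 102790784 on the plus strand of chromosome 2. Aldh1l1 spans 90486427 to 90600203 on the plus strand of chromosome 6, Gjb6 57123303 to 57133611 on the minus strand of chromosome 14 and Aqp4 15389496 to 15410982 on the minus strand of chromosome 18.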

How the data were processed

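RNA was measured in 13 arcuate nucleus libraries of KO and control mice on HFD or chow (Trizol extraction, Takara SMART-Seq kit, per the labels' protocols). Raw counts of reads and RPKM values, per gene and library, were taken as the authors deposited them. Per the submitters' processing notes, the tools were STAR, STAR-Fusion, Subread, FastQC and edgeR with mm10, and no version or role is listed. The deposited RPKM equalled the count per M counts and per kilobase, once a base was added to the deposited gene length. The relative difference was then at most 3.22e-13, so RPKM was used only to set levels of genes side by side. The labels name neither strand setting nor annotation. Total counts were 34.7 to 68.2 M per library.

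Groups came from the sample titles, and replicate numbers follow accession order. Counts were tested with edgeR 4.0.16 (quasi-likelihood F test, robust, TMM, default expression filter, 23622 of 55421 genes kept, R 4.3.3), with all 13 libraries in 1 fit of 4 groups plus the sex letter and Benjamini-Hochberg adjustment over all genes kept (threshold 0.05). Residual degrees of freedom were 8. All 10 astrocyte genes passed the filter. SE is the absolute log2 fold change divided by the square root of F. DESeq2 1.42.0 was an alternative. Both were run on simulated data with less spread than the common spread here and with larger changes than any of the 10 genes showed. That check says nothing of differences of the size seen here. CPM are per library total, without TMM factors. Correlations used log2(CPM + 1). Comparisons of F against M were added after the data were seen.

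The 10 genes and the 12 related and 9 marker lists were chosen with earlier results of these data known. The 10 genes are always named, with up to 4 genes per list with the smallest unadjusted p in a comparison, and for likeness the 3 genes (5 for Gfap) with the highest r, among genes whose mean log2 CPM reached 1. Promoters are from RefSeq and were read for 9 of the 10 genes, with Aqp4, on chromosome 18, left out. The labels do not say whether mice shared a batch, and p-values measure the spread between these mice. Diet coincides with the series of animal numbers in the titles, in every comparison of HFD with chow and in the interaction.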

Additional observations from a re-analysis of the deposited data

How the results depend on the processing

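DESeq2 called 344 genes for KO against control on chow, 46 for HFD against chow in controls, 8 in KO, 14 over both genotypes and 6 for the interaction, where edgeR called 0, and 68 for F against M, where edgeR called 13. Without the filter on low counts the calls were 1 for KO against control on chow, 5 for HFD against chow in controls and 22 for F against M, and F against M by the letters gave 0. Without both libraries that stood apart, the doubted libraries, KO against control gave 1 call on each diet, and with only its own groups in the fit KO against control on chow gave 1. Leaving out 1 library gave 0 to 1 calls for KO against control on each diet, 0 to 2 for HFD against chow in controls and 0 to 3 over both genotypes. Of the 45 gene pairs, 0 passed on group deviations and 9 without the 2 farthest libraries, against 14. Settings of F against M were added after the data were seen. No paired analysis was possible because replicate numbers follow accession order, and the first part of the animal number in the titles is shared across groups by 1 pair of mice only, KO_HFD replicate 2 and Control_HFD replicate 3. Control_HFD replicates 1 and 2 also share it, and what it marks is not said in the labels. The cause of these changes was not tested.

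Signs of the 10 genes turned as follows (log2 fold changes). Gja1 for HFD against chow in KO was 0.00090 in DESeq2, 0.00092 with RLE factors, 0.0098 without the filter, 0.0023 with sex from the reads, 0.0079 without both doubted libraries and 0.016 with only its groups. Slc1a3 for KO against control on chow was 0.010 with library totals, 0.025 without the sex term and 1.37e-05 without both doubted libraries. Slc1a2 for HFD against chow in controls was 0.0036 with library totals, 0.00044 without the filter, 0.0027 without the sex term and 0.0070 with only its groups. Aldoc for KO against control on chow was -0.0095 with only its groups.

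These log2 fold changes turned sign with sex taken from the reads. KO against control on HFD was -0.041 for Gfap. HFD against chow in controls was -0.029 for Slc1a3, -0.059 for Gja1 and -0.024 for Gjb6. HFD against chow over both genotypes was -0.029 for Gja1. The interaction was 0.039 for Aqp4 and 0.062 for Gja1.

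The following turned sign without both doubted libraries. KO against control on HFD was -0.43 for Gfap, -0.037 for Aqp4, -0.055 for Aldh1l1, -0.052 for Gja1, -0.12 for Gjb6 and -0.067 for Agt. KO against control on chow was -0.44 for Gfap, -0.17 for Aqp4 and -0.13 for Gja1. HFD against chow in controls was -0.055 for Aqp4, -0.0067 for Slc1a3, -0.072 for Gja1 and -0.0024 for Gjb6. HFD against chow over both genotypes was -0.0049 for Slc1a2 and -0.032 for Gja1. The interaction was 0.014 for Gfap, 0.13 for Aqp4 and 0.080 for Gja1.

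Leaving out each library in turn gave these ranges where a sign turned. KO against control on HFD was -0.10 to 0.56 for Gfap, -0.17 to 0.053 for Slc1a2, -0.061 to 0.11 for Aldh1l1, -0.0062 to 0.18 for Gja1, -0.14 to 0.15 for Gjb6 and -0.053 to 0.15 for Agt. KO against control on chow was -0.15 to 1.74 for Gfap, -0.090 to 0.69 for Aqp4, -0.045 to 0.018 for Slc1a3, -0.059 to 0.32 for Gja1, -0.29 to 0.023 for Gjb6 and -0.021 to 0.10 for Aldoc. HFD against chow in controls was -0.11 to 0.39 for Aqp4, -0.070 to 0.050 for Slc1a2, -0.062 to 0.062 for Slc1a3, -0.13 to 0.13 for Gja1 and -0.058 to 0.25 for Gjb6. HFD against chow in KO was -0.22 to 0.71 for Gfap, -0.20 to 0.25 for Aqp4, -0.048 to 0.20 for Slc1a2, -0.10 to 0.22 for S100b, -0.16 to 0.074 for Gja1, -0.037 to 0.23 for Agt and -0.0090 to 0.13 for Aldoc. HFD against chow over both genotypes was -0.020 to 0.25 for Aqp4, -0.023 to 0.096 for Slc1a2, -0.068 to 0.032 for Aldh1l1 and -0.063 to 0.064 for Gja1. The interaction was -1.39 to 0.11 for Gfap, -0.49 to 0.18 for Aqp4, -0.050 to 0.20 for Slc1a2, -0.13 to 0.00065 for Slc1a3, -0.20 to 0.13 for Gja1, -0.041 to 0.30 for Gjb6 and -0.27 to 0.016 for Agt. F against M was -0.024 to 0.10 for Aldoc. With 3 or 4 mice per group and a 10.4-fold range in Gfap, differences of its size here were not resolved.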
